A study of Caenorhabditis elegans with 2 samples.

Results

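Of the 774 peaks in the list that passed the irreproducible discovery rate (IDR) procedure for the GATA factor ELT-3 in Caenorhabditis elegans larvae, 215 (27.8%) had their summit in an intron. They were chosen by position alone: the summit lay inside a protein-coding gene of the WBcel235 assembly and in no exon, coding or untranslated, of any protein-coding transcript. The other peaks had 490 summits outside protein-coding genes and 69 in exons. Among the 30000 regions called on both replicates pooled, intronic summits made up 27.4% to 30.7% in each range of rank below the first 774. The share of 27.8% was therefore not particular to the strongest regions, and it was not compared with the intronic share of the genome. The data came from chromatin immunoprecipitation followed by sequencing (ChIP-seq) of whole L3 larvae of mixed sex, the third larval stage. All animals were of strain OP75, which carries the unc-119(ed3) III mutation and the transgene wgIs75, and which makes ELT-3 fused at its C terminus to GFP and FLAG. All samples belong to 1 group with 2 biological replicates, and there is no other condition to compare with, so positions and replicates are compared. Whole animals were used, so the tissue in which a site was bound is not recorded, and at elt-3 itself copies of the gene on the transgene can add reads. Each peak spans 340 bases and has a signal, the value given by the authors' peak caller. The sources used here do not give its scale, and the lists hold no read counts, so depth is unknown.

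ELT-3 is a zinc finger protein of the GATA family, named for the DNA sequence that the family recognises, and it is best known for its activity in the worm epidermis, the cell layer that makes the cuticle. Worm introns are mostly very short, and the long ones can hold enhancers, the start of a shorter transcript of the same gene, or whole genes nested on either strand. Many worm transcripts are joined to a spliced leader, so transcription may begin upstream of the start that is annotated.

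The GATA sequences nearest to the summits of strong peaks are shown first. The intronic peaks were called by signal, and the GATA sequence is the element that most of them share. Whether the matches shown are the ones bound was not tested. The sequence sought was WGATAR, in which W is A or T and R is A or G, on both strands and with overlapping matches kept. It was present in 33.6% of all intronic windows of 201 bases, the background for every count of it. The lines below give 30 bases around the WGATAR nearest to the summit at 10 of the 13 strongest intronic peaks, in order of signal. The peaks of these 13 that are not printed did not lack the sequence. They were the stronger peak of acs-13 and those of dhp-1 and C48E7.1, with 5, 4 and 3 matches. The bases are from genome sequence of RefSeq for WBcel235 (ce11), with matches in capitals. Each is written 5′ to 3′ on the strand on which the nearest site reads as WGATAR.
elt-3, chrX:13937430-13937459, minus strand: tgaaacccttaaTGATAAgaaaagaaaata
pkg-2, chrIV:8530931-8530960, plus strand: aagagaaaagtgTGATAAtgattgatttgg
gly-6, chrIII:4328769-4328798, plus strand: caaaTGATAGatTGATAAttatagaagatg
mec-17, chrIV:7985972-7986001, minus strand: ttctcactcatgAGATAAcctgttccattt
elt-3, chrX:13938172-13938201, plus strand: caatttttcagtTGATAAcgtatcatacta
mom-1, chrX:6296553-6296582, plus strand: gggggtcaccatAGATAGgtatcgcgcagg
asns-2, chrX:8750416-8750445, plus strand: gtgatacactaaTGATAAcaagcgataaga
egl-27, chrII:6842881-6842910, minus strand: atgagttcAGATAGATAAaaagaacatgag
pmt-2, chrV:4630441-4630470, minus strand: gtgttgatgataTGATAGtagagatggggt
pde-4, chrII:7631401-7631430, minus strand: atctaggaaacaTGATAAtcacagagagta

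Neighbouring matches ran the same way along the DNA in 69.7% of pairs, beside 55.3% of pairs in all intronic windows. Pairs that shared bases were few, at 6.79% beside 2.79%. The 5 further sites below come from other strong peaks with 4 or more matches in the 201-base window and show the 30 bases around the nearest match. At C28H8.2 and paqr-1 the other matches lie outside the bases shown. At egl-27 above, and at mob-2, eppl-1 and hlh-30 here, matches in tandem overlap by 1 or 2 bases or stand next to each other, so that a run of capitals can hold more than 1 site.
C28H8.2, chrIII:5921519-5921548, plus strand: ctttttctccctTGATAAgatacttgggta
mob-2, chrX:13165873-13165902, minus strand: atgaaagTGATAAGATAAtaataagaggtg
paqr-1, chrIV:6555096-6555125, minus strand: tgagagaatgtgTGATAAgagaacatgcgg
eppl-1, chrIV:8450687-8450716, minus strand: gttatgaatgaaTGATAAaAGATAAGATAA
hlh-30, chrIV:4032521-4032550, minus strand: tagatgtttctcTGATAAGATAAgattttt

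The strongest intronic peaks lay in genes of many different roles. The highest was at elt-3 itself, which is encoded on X. Its peak at chrX:13937315-13937654, in the second of 7 introns, had a signal of 92.5 in the IDR list, with 59.7 in replicate 1 and 35.0 in replicate 2. A further peak in the same intron, at chrX:13937999-13938338, had a signal of 80.4 (51.3 in replicate 1 and 35.6 in replicate 2), and a weaker peak at chrX:13939368-13939707, in intron 4, had 36.3 (20.5 and 17.1). All 3 held WGATAR, with 5, 2 and 2 matches, and their summits spanned 2053 bases. The part of the transgene in these values was not tested, and unc-119, the other gene named in the genotype, had no intronic peak.

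Next came pkg-2, a cGMP-dependent protein kinase gene, with a peak of 87.7 (61.0 in replicate 1 and 28.3 in replicate 2) in its intron 4 of 6824 bases at chrIV:8530726-8531065. A weaker peak in the same intron, of 32.5, lay 3050 bases away. gly-6, which encodes a glycosyltransferase of mucin-type O-glycans, had a peak of 81.7 (50.5 and 32.0) in its first intron, 833 bases upstream of an internal start. mec-17, whose product acetylates alpha-tubulin in touch receptor neurons, had 81.1 (58.0 and 23.3) in its first intron, with 4 matches. At mom-1, which encodes a Porcupine-type acyltransferase required for Wnt secretion, the peak of 78.8 lay in the last of 7 introns, and here replicate 2 had the higher value of its own list (33.7 in replicate 1 and 43.1 in replicate 2). That was the highest replicate 2 signal at any of the intronic peaks. The 2 lists need not share a scale, so a pair of values does not say which replicate had more binding.

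Metabolic enzymes and chromatin followed. The asparagine synthetase gene asns-2 had 77.5 (39.3 and 36.1) in an intron of 309 bases, and egl-27, which encodes a homologue of the MTA proteins of nucleosome remodelling complexes, had 75.3 (46.3 and 25.8) in intron 10 of 12. The acyl-CoA synthetase gene acs-13 carried peaks of 73.9 and 63.7 in its first intron, 1584 bases apart. The signal at pmt-2, a phosphoethanolamine methyltransferase gene of phosphocholine synthesis, was 73.6 (36.7 in either replicate), and at dhp-1, a dihydropyrimidinase gene, 71.3 (44.9 and 31.3). The cAMP phosphodiesterase gene pde-4 had peaks of 67.7 and 37.8 in different introns, 6243 bases apart. Among the 25 strongest intronic peaks were also those of C48E7.1 (68.7), the patched-related gene ptr-12 (65.3), F37B12.1 (61.6), Y41G9A.17 (61.6), the J-domain chaperone gene dnj-20 (60.7), ZC247.1 (60.7), lea-1 (60.3), C28H8.2 and mob-2 (60 each), atf-7 (59.4), a bZIP factor gene of innate immunity, and paqr-1 (58.8). Of these peaks, that of Y41G9A.17 held no WGATAR.

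Intronic peaks spanned most of the strength range of the list. Their signal ran from 29.5 to 92.5 with a median of 36.5 (quartiles 32.0 and 45.5), against a median of 36.9 (32.6 and 44.6) outside coding genes and 37.9 (33.2 and 44.2) in exons. Intronic summits made up 8 of the 25 strongest peaks of the list, 16 of the 50 strongest and 34 of the 100 strongest. A signal above the list median of 36.8 was found in 102 intronic peaks (47.4%) and in 248 of the 490 outside coding genes (50.6%), a difference that was not distinguishable from none (odds ratio 0.881, interval 0.631 to 1.23, two-sided Fisher exact test, adjusted p = 0.594). The highest values of the list, up to 133, lay outside coding genes. The weakest intronic peaks, of which those at klf-1 (29.6), pdhk-2 and hasp-1 (29.5 each) were named after their values were seen and let-607 (29.5) was not, stood at the edge of the list, and the strongest intronic region of the pooled list that was not in it also had a signal of 29.5.

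**Figure D1:**
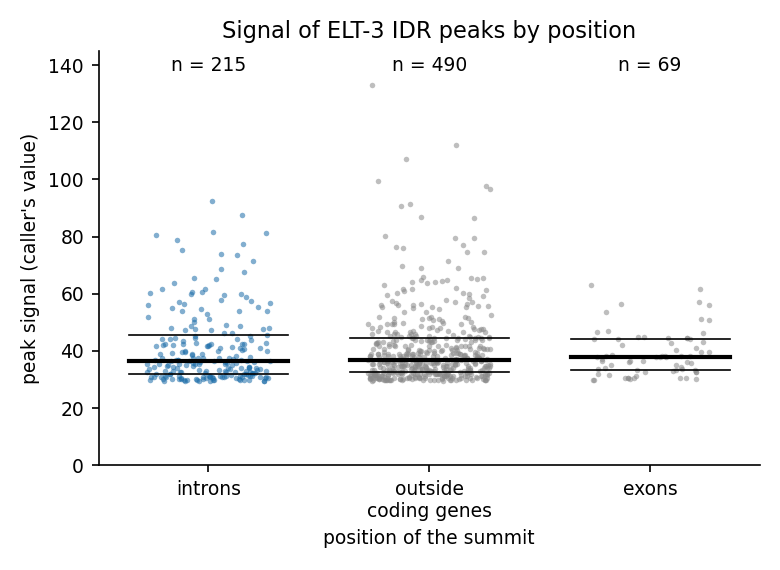
Signal of each IDR peak (the peak caller's value, vertical axis) by the position of its summit, with 1 point per peak, the median as a thick line and the quartiles as thin lines. The medians of 36.5, 36.9 and 37.9 lie close together, and the 215 intronic peaks reach 92.5.

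Most intronic peaks were among the strongest regions of at least 1 replicate. Of the intronic peaks, 163 (75.8%) overlapped the 774 strongest regions of replicate 1, 137 (63.7%) those of replicate 2, 97 (45.1%) both and 12 (5.58%) neither. Support by both was found for 213 of the 490 peaks outside coding genes (43.5%; odds ratio 1.07, interval 0.764 to 1.49, two-sided Fisher exact test, adjusted p = 0.757). Among the strongest 54 intronic peaks 52 were supported by both replicates, against 28, 13 and 4 in the following groups of 54, 54 and 53. The signal that ranks the peaks derives from these same 2 replicates. This fall, and the higher medians given next, are therefore partly built in by the choice of peaks. All 215 intronic peaks contained a summit of replicate 1, with signals from 7.11 to 61.0 and a median of 22.5, against 8.18 for the whole replicate 1 list. In replicate 2, 211 contained a summit, from 5.03 to 43.1 with a median of 14.9, against a list median of 5.91, and the 4 without one were at pat-12 and let-607 and, named after their values were seen, at D2023.1 and Y111B2A.12. Over these 211 peaks Spearman's rho between the replicates was 0.120 and Pearson's r of log2 values was 0.155. These are correlations across peaks, which are not replicates, and the peaks had been chosen by pooled signal, which narrows their range. Peaks that were strong in both replicates held WGATAR in 85.6% (83 of 97) and the others in 71.2% (84 of 118).

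**Figure D2:**
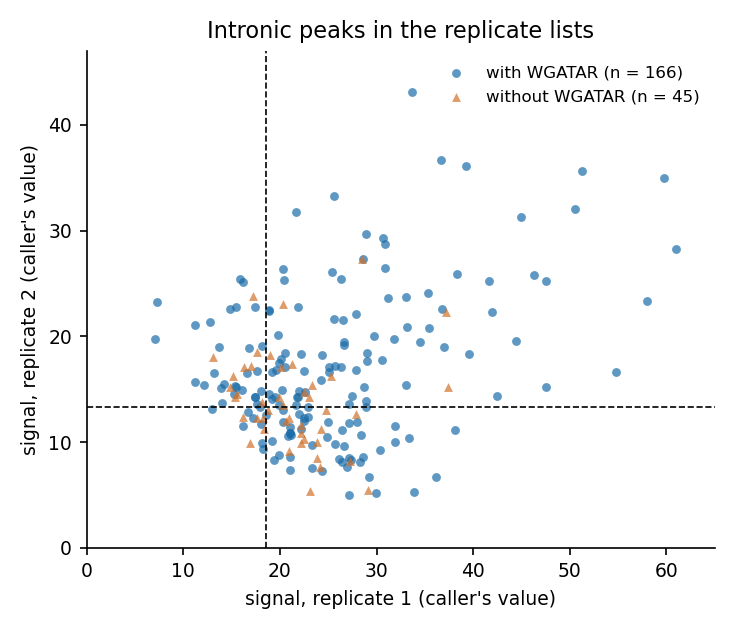
Signal of the 211 intronic peaks with a summit in both replicate lists, replicate 1 on the horizontal and replicate 2 on the vertical axis (the caller's values, each on the scale of its own list). Circles have WGATAR within 100 bases of the summit and triangles have none, and the dashed lines mark the signal of region 774 of either list (18.6 and 13.3). The points form a broad cloud, with peaks without WGATAR mostly at low values.

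Intronic peaks lay mostly in introns that were longer than usual. Of the 215 summits, 198 (92.1%) fell in an intron of the transcript with the longest coding sequence, and the other 17 in introns of other transcripts of the host. Over these 198 summits, the intron had a median length of 1862 bases (quartiles 712.75 and 4594.25, range 48 to 100912), and an intron with several summits was counted once for each. The summits fell in 186 distinct introns with a median length of 1771.5 bases. The median over all 103819 introns of such transcripts was 64 bases, and 6.84% of them reached 1000 bases. Counted by bases instead, the intron at the median intronic base was 887 bases long. Since long introns also offer more sequence, shares were set against intronic bases: introns of at least 1000 bases held 132 of 198 summits (66.7%, interval 59.6 to 73.2) and 45.8% of the bases (ratio 1.46, interval 1.30 to 1.60, two-sided exact binomial test, adjusted p = 4.13e-08). The density was 3.78 peaks per Mb in introns under 1000 bases, 8.96 in those of at least 1000 and 11.1 in those of at least 2000. Introns of at least 5000 bases held 46 summits (23.2% against 11.5% of bases) and those under 200 bases 7 (3.54% against 13.8%). When bases and summits within 170 bases of a coding exon were left out, the ratio was 1.12 and the call was lost (110 of 134, 82.1% against 73.3%, exact binomial test, adjusted p = 0.0726, range over alternatives 8.04e-10 to 0.0726).

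Single genes marked the ends of this range. nhr-27, a nuclear hormone receptor gene, held 2 peaks (40.9 and 34.6) in its first intron of 100912 bases, the longest intron with a peak, and cox-6B held 1 (34.0) in an intron of 86515 bases. The shortest were introns of 48 bases in hasp-1, 49 in srdh-1 and 50 in mltn-8, where most of a 340-base peak covers exons. Apart from nhr-27, these examples were chosen after their values were seen. Across all 215 peaks, 148 (68.8%) covered no base of a coding transcript's exon, and the median distance from summit to the nearest exon was 404 bases over the 198.

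First introns were over-represented and last introns were not. The first intron held 72 of 198 summits (36.4%, interval 29.7 to 43.5) and 24.0% of intronic bases (ratio 1.52, interval 1.24 to 1.81, two-sided exact binomial test, adjusted p = 3.40e-04). Second introns held 36 (18.2% against 16.2% of bases), the following ones 15, 21 and 11, and introns from the sixth on 43 (21.7% against 28.4%). Last introns held 15 (7.58%, interval 4.30 to 12.2, against 15.5% of bases). Among introns of at least 1000 bases alone, the first intron still held more than its share (54 of 132, 40.9% against 29.2%, ratio 1.40, exact binomial test, adjusted p = 0.0121). With the 387 strongest peaks of the list the ratio was 1.43 and narrowly missed the threshold (33 of 96, exact binomial test, adjusted p = 0.0506, range over alternatives 4.91e-05 to 0.0506). Along the intron, 41, 86 and 71 summits fell in its 5′, middle and 3′ parts of equal length, and the median position was 55.9% of the way from the 5′ end. From the first annotated start of the host the summits were 48 to 86386 bases away, with a median of 2813, and 43 (20%) were within 1000 bases.

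**Figure D3:**
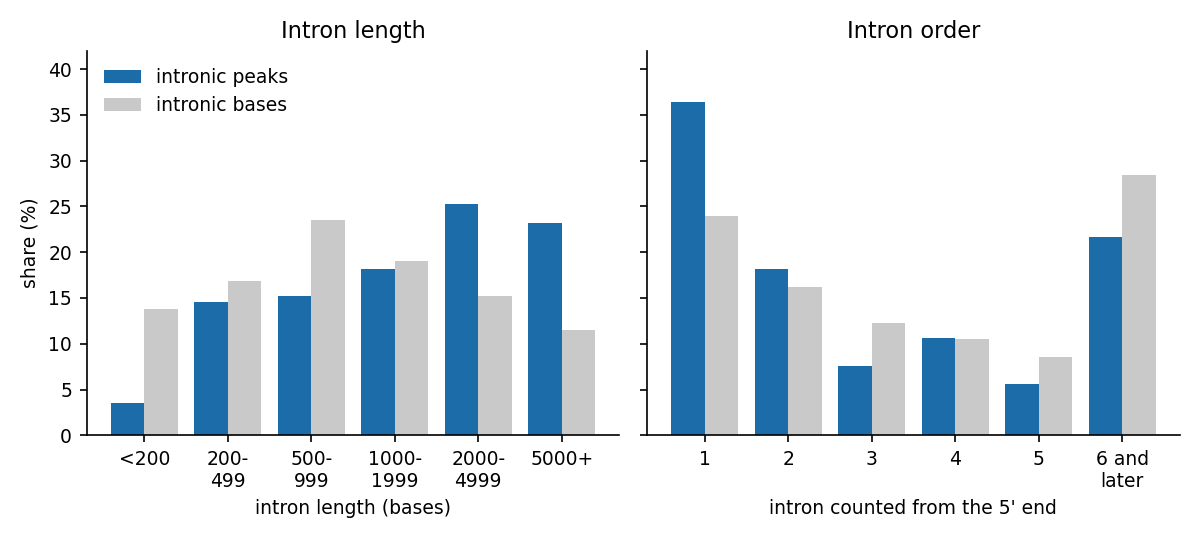
Share of the 198 intronic peaks in introns of the longest-coding transcript (blue) and of the bases of those introns (grey), by intron length in bases (left) and by the order of the intron from the 5′ end (right), in percent. Peaks exceed bases in introns of 2000 bases and more and in the first intron, with 36.4% against 24.0%.

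Many of the intronic peaks lay just upstream of an annotated start inside the same gene. A promoter window, from 1000 bases upstream to 200 downstream of any start of a protein-coding transcript, held 66 of the 215 summits (30.7%, interval 24.6 to 37.3) and 18.2% of intronic bases (ratio 1.69, interval 1.35 to 2.05, two-sided exact binomial test, adjusted p = 3.76e-05). The ratio was higher with a window from 500 bases upstream (2.23, 51 summits) and lower with one from 2000 bases (1.42, 101 summits). For 53 summits (24.7%, interval 19 to 31) the window belonged to an internal start of the host, meaning one over 200 bases from its first start, and such windows covered 10.6% of intronic bases. For 16 (7.44%) it belonged to another gene (5.94% of bases), and for 2, at dhp-1 and ZC247.1, to the first start of the host (3.04% of bases). Some summits lay in windows of several kinds, so these counts overlap. The other 149 summits (69.3%) lay in no promoter window.

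Hosts of these peaks were genes with alternative starts more often than intron sequence at large. Of the 198 peaks in introns of the longest-coding transcript, 130 (65.7%, interval 58.6 to 72.2) had a host with an internal start, against 42.5% of intronic bases, and 18.1% of all 19286 coding genes with introns have one. This difference was not tested. The nearest start of any kind was an internal start of the host for 107 peaks, its first start for 77 and a start of another gene for 31, at a median distance of 1088 bases and up to 17605 bases. At the 53 peaks in internal windows, the summit lay at a median of 289 bases upstream of the start. Examples are the second elt-3 peak (574 bases upstream), gly-6 (833), the weaker acs-13 peak (337), dnj-20 (367), lea-1 (466), atf-7 (391) and nhr-23, a nuclear hormone receptor gene required for molting, where a peak of 51.3 (29.0 in replicate 1 and 18.4 in replicate 2) lay 51 bases upstream of an internal start.

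Some intronic peaks lay upstream of the start of another gene. The 16 peaks in windows of other genes were 7.44% of intronic peaks (interval 4.31 to 11.8), beside 5.94% of intronic bases in such windows. They reached 17 other genes, of which 9 lay wholly within the host and 14 ran on the strand opposite to it. No share over intron sequence at large is given for nesting or strand, so these counts do not mark a trait of the peaks. The signals of the 16 peaks ran from 30.9 to 52.9 with a median of 34.0. All summits were upstream of the other gene's start, by 15 to 920 bases. WGATAR was present at 11 of the 16 (68.8%, interval 41.3 to 89), beside 77.7% of all intronic peaks, and was absent from the peaks in hsp-90, cox-6B, dhgd-1, pcbd-1 and ZK154.4. The hosts and neighbours of this group, apart from nhr-27, are named with their values known. The strongest peak, of 52.9 in metl-1, lay 787 bases upstream of mfn-1. In an intron of ogdh-2 a peak of 39.3 (25 in replicate 1 and 11.9 in replicate 2) lay 720 bases upstream of lon-3, a cuticle collagen gene. In an intron of C44H4.4 of 13677 bases a peak of 38.1 (28.6 and 8.56) lay 27 bases upstream of sym-1, which encodes an extracellular leucine-rich repeat protein of the epidermis. In an intron of dhc-4 a peak of 36.7 (22.5 and 12.3) lay 204 bases upstream of the collagen gene col-93. A peak of 31.7 in an intron of T14B4.19 lay 424 bases upstream of dpy-10, a collagen gene of body shape, which is not wholly inside T14B4.19. The peak of 34.0 in cox-6B lay in the windows of both nduc-2 (803 bases) and Y71H2AM.20 (101 bases). In all, 4 of the 16 peaks, those in cox-6B, hsp-90, C27D8.3 and taf-5, also lay in a window of an internal start of the host. The second nhr-27 peak (34.6) lay 389 bases upstream of cept-1, and a peak of 33.9 in sel-2 lay 231 bases upstream of mab-21. The other starts were those of Y48G8AL.13, C47E8.4, C27D8.2, Y54E5A.8, F54D5.7, hrde-4, ZK154.1 and F30F8.5.

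The GATA sequence was present at most intronic summits. WGATAR lay within 100 bases of 167 of the 215 summits (77.7%, interval 71.5 to 83.1), against 33.6% of 165832 windows of the same length tiled over introns and 40.7% of windows centred 500 bases to either side of the same summits. The peaks outside coding genes held it in 352 of 490 (71.8%, interval 67.6 to 75.8), and the difference from intronic peaks was not distinguishable from none (odds ratio 1.36, interval 0.924 to 2.03, two-sided Fisher exact test, adjusted p = 0.207). The spelling TGATAA occurred at 59.5% of intronic summits and in 16.8% of tiled windows. GATAAG, which can overlap WGATAR and extends it by a G, occurred at 44.2% and 6%. The G and C content was 39.9% at the summits and 33.8% in tiled windows, and its part in these shares was not tested.

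Matches were close to the summit and often several. Their density was 11.5 and 10.7 per kb in the 50 bases before and after the summit and between 1.95 and 3.81 per kb beyond 250 bases. The nearest match was at a median of 23.5 bases from the summit, within 25 bases at 84 of 167 peaks and within 50 at 127. A single match was found at 51 summits, 2 at 57, 3 at 30, 4 at 18, 5 at 6 and 6 or more at 5. The mean was 1.80 per window, against 1.63 outside coding genes and 0.435 in tiled windows, and 54% of intronic summits had at least 2 matches, against 8.02% of tiled windows. The highest number, 7, was at wdr-62, a peak of moderate signal (32.4), followed by 6 at mob-2, hlh-30, unc-52 and Y11D7A.3. Of these, wdr-62 and Y11D7A.3 were named after their values were seen.

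**Figure D4:**
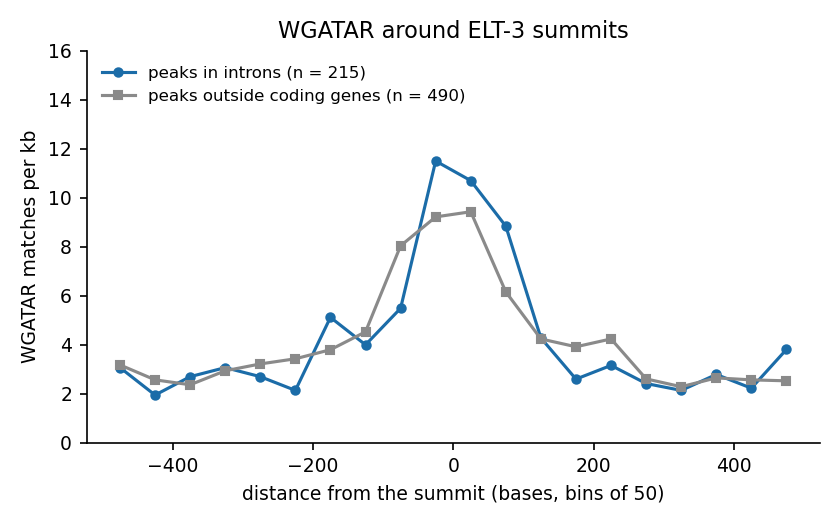
WGATAR matches per kb on both strands (vertical axis) by distance from the summit in bins of 50 bases (horizontal axis), for the 215 intronic peaks and the 490 peaks outside coding genes. Both curves peak at the summit, at 11.5 per kb in introns.

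The spelling and arrangement of the sites can be set beside those of intron sequence at large. Of the 388 matches at intronic summits 210 (54.1%) read TGATAA, 82 (21.1%) AGATAA, 53 (13.7%) TGATAG and 43 (11.1%) AGATAG, against 43.9%, 27.9%, 16.6% and 11.7% in tiled windows. Neighbouring matches in a window numbered 221 pairs, at a median of 28 bases between first bases. They pointed the same way in 154 pairs (69.7%, interval 63.2 to 75.7), against 55.3% of pairs in tiled windows, and lay within 20 bases of each other in 86 (38.9% against 24.1%). Overlapping pairs, 4 or 5 bases apart, made up 15 (6.79%) and 2.79%. These differences were not tested, since pairs in a window are not independent. Relative to the host gene, the nearest match was spelled on the host's strand in 81 of 167 peaks (48.5%, interval 40.7 to 56.3, two-sided exact binomial test against 50%, adjusted p = 0.757). This depended on the choice of sites and peaks: with all matches counted, 171 of 388 lay on the host's strand (44.1%, exact binomial test, adjusted p = 0.0400), although matches in a window are not independent. With the strongest regions of replicate 2 alone, without replicate 1, it was 69 of 167 (41.3%, exact binomial test, adjusted p = 0.0479, range over alternatives 0.0400 to 0.937).

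WGATAR was most frequent among the strongest peaks. From the strongest to the weakest group of 54, 54, 54 and 53 intronic peaks, it was present in 94.4%, 79.6%, 68.5% and 67.9%, and the mean number of matches was 2.56, 1.67, 1.63 and 1.36. The trend went on below the list. Intronic regions ranked 775 to 2000 in the list called on pooled replicates held it in 57.5%, and those ranked 20001 to 30000 in 35.7%, close to the 33.6% of tiled windows. The 48 intronic peaks without WGATAR had a median signal of 33.1 and were strong in both replicates in 29.2%, against 37.8 and 49.7% for the 167 with it.

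A repeat of G and A was the other sequence examined. GAGAGA was present within 100 bases of 70 intronic summits (32.6%, interval 26.3 to 39.3), against 8.49% of tiled windows, and of 175 of 490 summits outside coding genes (35.7%). The classes were not distinguishable (odds ratio 0.869, interval 0.608 to 1.24, two-sided Fisher exact test, adjusted p = 0.594). In the same 4 groups, from the strongest down, its share was 27.8%, 31.5%, 37% and 34%, and this order was not tested. It was present at 33.5% of intronic peaks with WGATAR and 29.2% of those without. The most matches, overlapping ones included, were 10 at zfp-1 and 9 at klf-1, named after their values were seen. GAGACG was present at 37 intronic summits (17.2%, against 4.52% of tiled windows). By intron order it was found at 6 of 72 summits in first introns (8.33%) and 29 of 126 in later ones (23%). Its share was also lower in introns under 1000 bases than in longer ones, and lower inside promoter windows than outside them. None of these contrasts was tested. The share of GAGACG in tiled windows was not computed by intron order, so the contrast does not mark a trait of first introns.

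**Figure D5:**
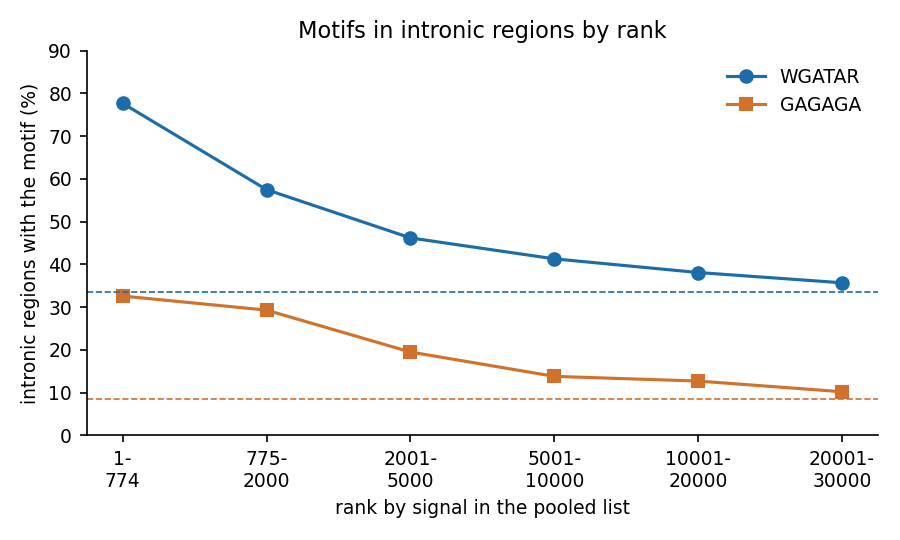
Share of intronic regions with WGATAR or GAGAGA within 100 bases of the summit (vertical axis, percent) by rank in the pooled list of 30000 regions (horizontal axis), with the shares in tiled intronic windows as dashed lines. WGATAR falls from 77.7% to 35.7% and GAGAGA from 32.6% to 10.2%.

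Intronic peaks were spread over 186 host genes, of which 161 had 1 peak, 21 had 2 and 4 had 3. These hosts are 0.964% of the 19286 coding genes with introns. Besides elt-3, the genes with 3 were zfp-1, a PHD-finger chromatin factor gene, with peaks of 34.3, 44.3 and 42.1, let-607, a bZIP factor gene (29.5, 36.6 and 36), and E01G4.3 (30.1, 32.7 and 31.8). WGATAR was present in 1 of 3 peaks at zfp-1, in 1 of 3 at let-607 and in 2 of 3 at E01G4.3. anc-1, which encodes a giant protein that anchors nuclei, had 2 (57.6 and 36.5), both with WGATAR. All peaks of a gene share their host and are not independent.

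Genes that attach the epidermis held the highest share of hosts among the gene lists, which were chosen with earlier results of these data known and are given as counts beside the 0.964%. Of 9 attachment and hemidesmosome genes 4 were hosts, and their list has 0.165% of intronic bases and 1.86% of the intronic peaks. They were mua-3 (65.6, with 41.9 in replicate 1 and 22.3 in replicate 2, intron 13 of 33) and mup-4 (58.0, 35.4 and 20.8, first intron), which encode transmembrane proteins linking the epidermis to the cuticle. The others were the intermediate filament gene ifb-1 (31.1, 22.2 and 11.2), 340 bases upstream of an internal start, and pat-12 (30.9), where replicate 1 had 26.1, replicate 2 had no summit and WGATAR was absent. Of 17 junction and spectrin genes jac-1, a p120 catenin gene, was a host (42.5), and of 20 matrix genes unc-52, a perlecan gene (41.2, with 6 matches).

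Among regulators, 3 of 19 epidermal transcription factor genes were hosts, elt-3, nhr-23 (51.3 and 30.9) and blmp-1, a zinc finger gene of developmental timing (31.2, 14 in replicate 1 and 13.7 in replicate 2, with 4 matches). Their 6 peaks, of which elt-3 gave 3, were 2.79% of intronic peaks on 0.302% of intronic bases. Of 13 heterochronic genes lin-14 was a host (37.5 and 31.3), of 18 TGF-beta genes sma-9, a Schnurri homologue gene (32.6, without WGATAR), of 9 insulin pathway genes the FOXO gene daf-16 (48.0, in an intron of 12401 bases), and of 8 chromatin genes egl-27. Of 269 nuclear hormone receptor genes 5 were hosts (1.86%, 7 peaks): nhr-23, nhr-27, nhr-31 (33.9), which acts in the excretory cell, nhr-46 (30.7) and nhr-3 (30.1, named after its value was seen). No host was found among 27 Wnt, 15 EGF and Ras, 15 ion channel, 22 neuronal, 16 muscle and 15 intestinal genes, 63 ceh homeobox genes or 143 collagen genes of the col series. This holds for the listed genes alone, and the lists do not cover a pathway or tissue in full. The hosts mom-1 (78.8), required for Wnt secretion, and mec-17 (81.1), of touch receptor neurons, were on none of the lists. With 3 counts as the limit, 0 hosts allow a share of up to 2.10% in the col genes and of up to 20% in the lists of 15. All of these limits are above 0.964%, so a list with 0 hosts may still hold them at that rate.

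Intronic peaks were unevenly spread over the chromosomes. On X there were 51 of 215 (23.7%, interval 18.2 to 30), against 16.3% of intronic bases (ratio 1.45, interval 1.12 to 1.84, two-sided exact binomial test, adjusted p = 0.0121). Without elt-3, which gives 3 of them, the ratio was 1.39 (exact binomial test, adjusted p = 0.0348, range over alternatives 0.00706 to 0.167). The call was lost with the strongest regions of replicate 1 alone, without replicate 2 (ratio 1.29, exact binomial test, adjusted p = 0.114). Chromosome V held 22 (10.2%, interval 6.52 to 15.1) and 18.2% of intronic bases, a difference that was not tested. Peaks on X held WGATAR in 72.5% (37 of 51) and those on autosomes in 79.3% (130 of 164).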

How the data were processed

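ELT-3::GFP::FLAG ChIP-seq of whole L3 larvae, 2 biological replicates of 1 group, was used as deposited: for ce11, 1 region list per replicate, 1 called on both replicates pooled (30000 regions each) and 1 IDR list (774), per the deposited descriptions. The signal of a region is the authors' peak caller value and served only to rank and describe regions within a list. Aligner, caller and IDR threshold: not given in the sources used here. Lists in ce10 were not used here. A replicate's signal at a peak is that of its strongest summit inside the peak, and a peak was supported by a replicate if it overlapped at least 1 base of that replicate's 774 strongest regions (344 bases wide in replicate 1, 336 in replicate 2).

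Genes came from Ensembl release 115 and sequence from RefSeq, both WBcel235. Intron order and length are those of the transcript with the longest coding sequence, and the shortest intron was taken where introns overlap. Motifs were sought within 100 bases of the summit. Classes of peaks were compared by two-sided Fisher exact tests and positions by two-sided exact binomial tests against the share of intronic bases, 9 tests with Benjamini-Hochberg adjustment at 0.05, in Python 3.11.15 with scipy 1.17.1, numpy 2.4.6, pandas 2.3.3 and matplotlib 3.10.9. The procedures were tested on simulated data. Intervals are 95% Clopper-Pearson intervals, or exact intervals of the odds ratio, and cover counting error only. Peaks are not replicates, so a p-value speaks of these lists and says nothing of how animals vary.

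Results were recomputed with the 387 strongest IDR peaks, with the 774 strongest regions of 1 replicate, with other motif, promoter and intron limits, other reference peaks, exons of any biotype, 1 peak per host, and the list without elt-3 and unc-119. The limit of 170 bases from a coding exon and the restriction to introns of at least 1000 bases were added after the data were seen. Genes named are the hosts of the 25 strongest intronic peaks, up to 10 hosts with several peaks, up to 4 hosts per gene list, elt-3 and unc-119, and the hosts of the sites printed; others are marked. Members, lists and tests were chosen with earlier results of these data known. The symbols ifa-2 and nca-1 found no match and were left out of their lists.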

Additional observations from a re-analysis of the deposited data

How the results depend on the processing

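Of 77 values recomputed under alternatives for 10 results, 68 were counted as unchanged, 4 lost the call, 2 gained it and 3 changed direction. Unchanged means the same direction and the same side of the threshold of 0.05. For the intronic counts given below, which have no test, it means only a count within a wide limit around 215. The excess in promoter windows passed in every alternative run. Signal above the list median had an odds ratio of 1.26 among the 387 strongest peaks and 1.02 with 1 peak per host, instead of 0.881, and support by both replicates 0.938 against peaks between genes far from starts, instead of 1.07; none of these passed the threshold. First introns had a ratio of 1.43 with the 387 strongest peaks, long introns 1.12 at 170 bases or more from a coding exon, and X 1.34 there (exact binomial test, adjusted p = 0.167), each without the call. Leaving out either replicate gave ratios of 1.29 (without replicate 2, call lost) to 1.39 for X. For the host strand of WGATAR it gave 0.826 (without replicate 1, exact binomial test, adjusted p = 0.0479) to 0.873, and all 388 sites together gave 0.881 (171 on the host strand, 44.1%, adjusted exact p = 0.0400, range over alternatives 0.0400 to 0.937), although sites in a window are not independent. The cause was not tested. Support by both replicates has no value with 1 replicate left out. The intronic count was 205 with exons of any biotype, and 223 and 225 for replicate 1 and replicate 2 alone. No paired analysis was possible because there is a single group. The number of peaks, 215, limits the precision of shares, depth is unknown, and mappability and open chromatin were not examined.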

Other observations

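Some intronic peaks covered genes of small structural RNAs that lie inside the host's introns, and these mostly lacked the GATA sequence. Of the 215 intronic peaks, 8 overlapped a tRNA, snoRNA or snRNA gene, with signals from 29.9 to 54.1, and 7 of the 8 had no WGATAR within 100 bases of the summit, beside 48 of all 215 (22.3%). The strongest was in pxn-1, a peroxidasin gene, at chrV:8500411-8500750 over the snoRNA gene ZK994.7, with a signal of 54.1 (28.5 in replicate 1 and 27.3 in replicate 2). It was followed by F58G1.7 (51.8, 37.4 and 15.2) over the snRNA gene sup-6 and by frm-7 (45.3, 20.3 and 23.1) over 2 snoRNA genes. The peaks in cye-1 (39.1), aat-3 (37.0), F49D11.10 (32.6) and egl-17 (29.9) covered a tRNA gene each, and that in C08D8.1 (31) a snoRNA gene. After Y41G9A.17, the 3 strongest intronic peaks without WGATAR were those of pxn-1, F58G1.7 and frm-7. This group was chosen after its values were seen, and no test was run on it. The share of intron sequence that overlaps such genes was not computed, so the count of 8 has no background beside it.

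Genes of the class ncRNA were overlapped by 16 peaks, some of them among these 8, including those in mua-3, F37B12.1, peb-1 (53.9, named after its value was seen) and the stronger peak of anc-1, and 27 peaks in all overlapped a noncoding gene (12.6%, interval 8.44 to 17.7). No share over intron sequence at large was computed for these counts, so they do not mark a trait of the peaks.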
